A study of Arabidopsis thaliana with 12 samples.

Results

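The Arabidopsis thaliana line gra3-D was compared with wild type of the same Col-0 ecotype, with 3 arrays for each, out of 12 arrays in the series. The members were the arrays labelled gra3-D and WT, and all 20777 gene loci of the deposited table were tested. Weight lies on the 20155 loci outside the end of chromosome 4, and the other 622 loci lie in that end, from AT4G32830 to AT4G40090. The series title links the grandifolia-D mutants to a chromosomal duplication. The remaining 6 arrays came from gra1-D and gra2-D, 3 each. All plants grew on MS medium at 22 °C under cycles of 16 h light and 8 h dark, and RNA came from seedlings at growth stage 1.03, of which the vegetative part was used. Each array is labelled as a biological replicate, and the labels give neither the number of copies of the duplicated segment nor whether gra3-D was homozygous. The p-values measure the spread among these arrays.

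A duplicated chromosome segment adds copies of every gene within it, so transcripts of the segment often rise with copy number. Genes elsewhere keep their copy number. The grandifolia mutants are named for their large leaves, and leaf size depends on how long leaf cells divide and how far they expand, under transcription factors such as ANT and GRF2 and cyclins such as CYCD3;1.

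Values are log2 expression values, so a change of 1 is a doubling, and a value after ± beside a change is its standard error from limma unless marked SD. Pearson correlations over loci, which are not independent replicates, lay between 0.996 and 0.997 among wild-type arrays and between 0.995 and 0.997 among gra3-D arrays. Photosynthesis genes were among the brightest on the arrays, with a median log2 value over 6 measured genes of 13.99 to 14.002 on wild-type arrays and 13.98 to 14.01 on gra3-D arrays. Of 7 root markers, 6 had a wild-type mean under 5, a level taken as close to background after the values were seen. The summed intensity of all 7 was 2261 to 2524 in wild type and 2208 to 2401 in gra3-D. Only 1 of the 7 had a mean level of at least 6. All 7 floral organ markers and all 4 seed storage markers were under 5 in both groups. In whole seedling tissue, fewer cells of a type and less RNA per cell cannot be told apart.

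Outside the chromosome 4 end, more loci fell than rose in gra3-D. Of the 20155 loci, 191 were higher (0.948%) and 618 were lower (3.07%) than in wild type at an adjusted p under 0.05, together 809 (4.01%). Most changes were small. The median change was 0.44 among loci that rose and -0.39 among loci that fell, and only 10 loci rose and 19 fell by 1 or more. The loci that fell had a median level of 7.90 and those that rose of 7.36, against 6.35 for all loci outside the end. Loci with a mean level from 10 to 12 were called lower in 6.95% and higher in 1.48% of cases, those from 6 to 8 in 3.77% and 1.48%, and the 238 loci from 12 upward in 1.68% and 1.26%. Each nuclear chromosome held both directions, with falls from 2.65% of loci on chromosome 1 to 3.71% on chromosome 3 and rises from 0.741% on chromosome 2 to 1.09% on chromosome 1.

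The plot of change against adjusted p shows the surplus of falls. When each array was centred on chromosomes 1, 2, 3 and 5, 260 loci rose and 478 fell, so that rises made up 35.2% of the calls in place of 23.6%. The count of 809 dropped to 382 without gra3-D replicate 2, to 533 without gra3-D replicate 3, and to 514, 524 and 538 without wild-type replicates 1, 2 and 3, and falls exceeded rises in each of these 5 counts. Of 31 loci of the mitochondrial genome 3 rose, and the largest of those rises, ATMG01220 at 0.89 ± 0.22, lost its call without wild-type replicate 2 or 3 or without gra3-D replicate 1 or 2 (with adjusted p as high as 0.0986). ATMG01220 was named after its value was seen.

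**Figure D1:**
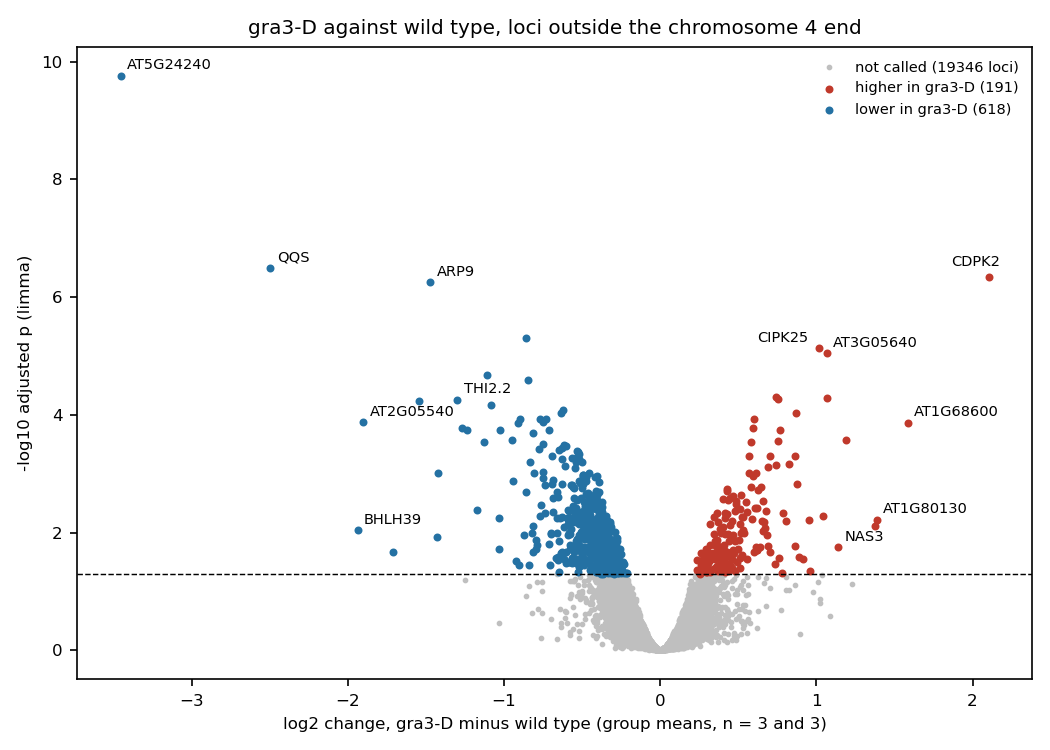
Change in gra3-D against wild type (log2, x axis) and -log10 of the limma adjusted p (y axis) for 20155 loci outside the chromosome 4 end, 1 point per locus. The dashed line marks an adjusted p of 0.05; 191 loci lie above it on the higher side and 618 on the lower side, with AT5G24240 and QQS farthest to the left and CDPK2 farthest to the right.

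AT5G24240, which the gene table does not name, fell furthest. Wild-type arrays read 8.27, 7.85 and 8.12, and gra3-D arrays 4.67, 4.58 and 4.64. All gra3-D values were close to background, so the locus was at least 10.95-fold lower (change -3.45 ± 0.093, adjusted p = 1.73e-10). The changes against the same wild-type arrays were -3.41 in gra1-D and -3.11 in gra2-D. QQS, an orphan gene that affects starch content, read 9.49, 9.44 and 9.05 in wild type and 6.92, 6.87 and 6.71 in gra3-D. Its fall of 5.64-fold (change -2.49 ± 0.13, adjusted p = 3.19e-07) left the groups more than 2 log2 units apart on every array. QQS stood at -2.07 in gra1-D but at 0.91 in gra2-D.

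ARP9, an actin-related protein gene, fell by 1.47 ± 0.088 on the log2 scale, from 7.71, 7.63 and 7.72 to 6.36, 6.25 and 6.04. THI2.2, which encodes a thionin, a small defence peptide, read 10.78, 10.20 and 10.64 in wild type and 9.40, 9.16 and 9.18 in gra3-D (change -1.30 ± 0.15). NET3A, of the actin-binding NET family, was at least 2.36-fold lower (change -1.24 ± 0.16), since its gra3-D arrays read 4.84, 4.69 and 4.64. Groups that do not overlap were a condition for a place among the 12 largest falls and the 12 largest rises. The changes of these 3 genes in gra1-D and gra2-D were -1.57 and -1.61 for ARP9, -1.50 and -1.36 for THI2.2, and -0.77 and -0.74 for NET3A. The other large falls were of unnamed loci, AT2G05540 (-1.90), AT5G01870 (-1.55), AT3G62950 (-1.42, a lower bound) and AT3G05730 (-1.27). Among the 12 largest falls, AT3G02480 (-1.71 ± 0.40, a lower bound) lost its call without wild-type replicate 1 or 2 or gra3-D replicate 1 or 3 (with adjusted p as high as 0.0921), and AT3G16670 (-1.43 ± 0.31) without wild-type replicate 2 or gra3-D replicate 3 (with adjusted p as high as 0.0553).

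The protein kinase genes CDPK2 and CIPK25 were among the 12 largest rises. CDPK2, a calcium-dependent protein kinase gene, read 4.58, 4.84 and 5.10 in wild type and 7.06, 6.91 and 6.87 in gra3-D. Wild type was close to background, so the gene was at least 4.30-fold higher (change 2.103 ± 0.12, adjusted p = 4.47e-07), and its changes in gra1-D and gra2-D were 2.12 and 2.04. CIPK25, of a kinase family that works with calcium-sensing CBL proteins, rose by 1.02 ± 0.094, from 5.04, 5.26 and 5.02 to 6.01, 6.24 and 6.12. Within each of these 2 genes the arrays of a group lay close together, and groups that do not overlap were a condition of this ranking. GOLS3, a galactinol synthase gene of the cold response, read 6.34, 7.01 and 6.72 in wild type and 8.20, 7.74 and 7.24 in gra3-D (change 1.04 ± 0.20). LTI78, a classical cold, drought and abscisic acid marker, rose from 9.22, 9.63 and 9.73 to 10.58, 10.72 and 10.14 (change 0.95 ± 0.19). In both genes gra3-D replicate 3 was the lowest of its group.

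AT5G03545, whose synonym in the gene table is INDUCED BY PI STARVATION 2, rose by 1.38 ± 0.28, from 5.46, 5.22 and 5.77 to 6.73, 7.34 and 6.52. Unnamed loci made up much of the rest, with AT1G68600 (1.58 ± 0.20), AT1G80130 (1.39 ± 0.27), AT1G52000 (1.19 ± 0.16), AT1G27030 (1.07 ± 0.12) and AT3G05640 (1.07 ± 0.10). AT5G22460 (0.96 ± 0.26) was called less firmly, since the call ended without wild-type replicate 2 or 3 or gra3-D replicate 2 or 3 (with adjusted p as high as 0.142) and with only the arrays of both groups in the fit (adjusted p = 0.0885). Of the 24 loci named as the largest changes, the values on each array are in the plot of the 12 largest rises and falls.

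**Figure D2:**
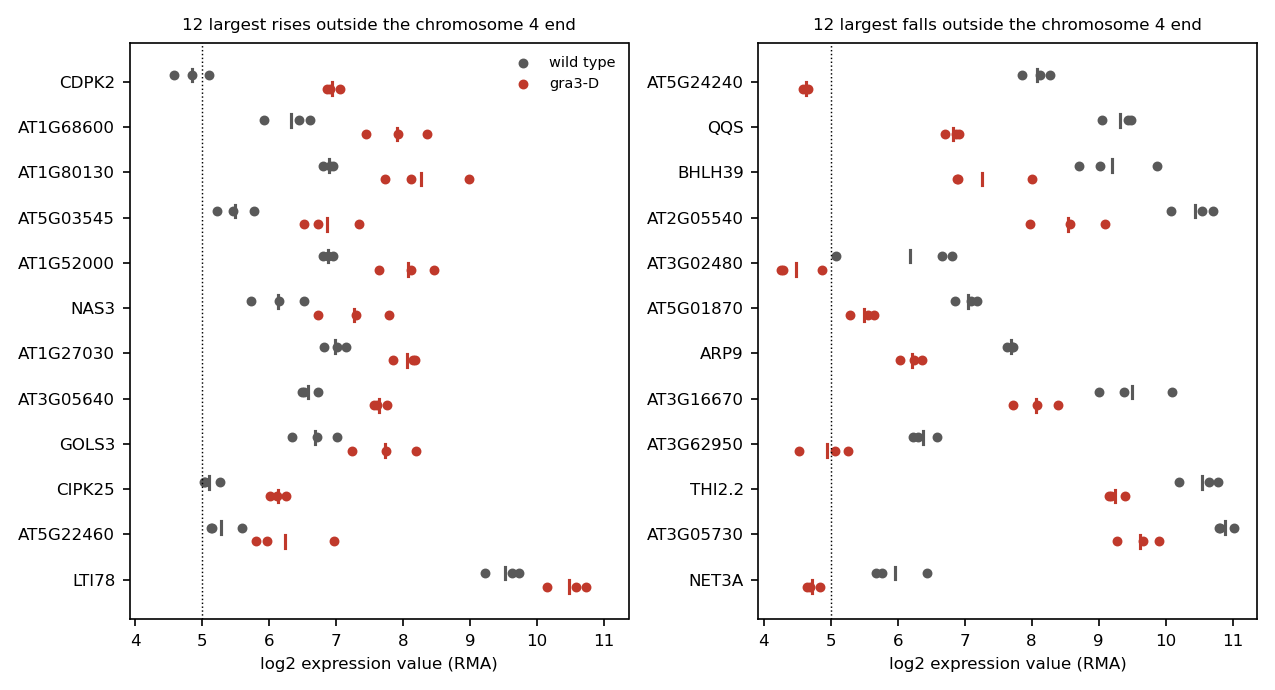
Log2 expression values of the 12 largest rises (left) and 12 largest falls (right) outside the chromosome 4 end, 1 point per array, grey for wild type and red for gra3-D, with a bar at each group mean. Only called loci with groups that do not overlap were ranked. The dotted line at 5 marks the level taken as close to background; AT5G24240 falls from about 8 to below that line, and CDPK2 rises from it to about 7.

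Some iron genes fell in gra3-D, and none of the main list rose. In Arabidopsis, bHLH39 and bHLH101 are transcription factors that switch on uptake when iron is short, BTS is a ubiquitin ligase that restrains this response, FRO3 reduces ferric iron in mitochondria, and nicotianamine, made by NAS enzymes, carries metals between cells. Of 12 measured iron genes, 3 fell and 0 rose, their median change was -0.50 and 10 were below 0, against a median of -0.02 over all loci outside the end. Of all loci outside it, 3.07% fell and 0.948% rose. At an unadjusted p under 0.05, 7 were lower and 0 higher. BHLH39 read 9.87, 8.71 and 9.02 in wild type and 6.90, 8.01 and 6.88 in gra3-D (change -1.94 ± 0.40, adjusted p = 0.00908). FRO3 read 9.79, 9.46 and 9.67 against 8.69, 9.17 and 8.65 (change -0.80 ± 0.13, adjusted p = 0.000986). In both genes replicate 2 was the lowest wild-type array and the highest gra3-D array. For BHLH39, one of the 12 largest falls, groups that do not overlap were a condition of that ranking.

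BTS fell by 0.82 ± 0.19, from 9.96, 9.34 and 9.97 to 8.79, 9.31 and 8.71, with wild-type replicate 2 only just above gra3-D replicate 2. No call was made for BHLH101 (-1.25 ± 0.37, adjusted p = 0.0634), PYE, a repressor in the same network (-0.75 ± 0.22, adjusted p = 0.0677), or OPT3, a transporter that loads iron into phloem (-0.58 ± 0.20, adjusted p = 0.13). For BHLH101 the groups overlapped through the same replicate number, with 8.74, 7.46 and 8.34 in wild type and 6.70, 7.63 and 6.46 in gra3-D. FER1, a ferritin gene that rises with iron supply, was not called (0.47 ± 0.35), with replicate 2 the highest of wild type and the lowest of gra3-D, at 10.31, 10.74 and 10.31 in wild type and 11.06, 10.43 and 11.28 in gra3-D. FIT and IRT1, which mark iron uptake in roots, were close to background in both groups. The part of replicate 2 in these differences was not tested beyond leaving it out. Without wild-type replicate 2, 6 iron genes were called lower, with BHLH101, PYE and OPT3 added. Without gra3-D replicate 2 there were 4, with BHLH101 added. The count was 2 without wild-type or gra3-D replicate 1 or 3, and 2 with array weights. BHLH101 was also called with an intensity trend, and BHLH101 and PYE with only loci at a mean level of at least 6. BHLH39 and FRO3 kept their calls in every one of the 6 fits without 1 array, and BTS lost its call without wild-type replicate 1 or 3 or gra3-D replicate 1 or 3 (with adjusted p as high as 0.0971) but not without either replicate 2.

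A second set of 15 metal transport genes, chosen after the values were seen, held 2 that rose and 3 that fell, with a median of 0.06. The shares over all loci outside the end were 0.948% higher and 3.07% lower. NAS3, a nicotianamine synthase gene, rose by 1.14 ± 0.26, from 6.14, 6.52 and 5.73 to 7.29, 6.73 and 7.79. ZIF1, which moves nicotianamine into vacuoles, fell by 0.67 ± 0.16, and NRAMP4, which releases iron from vacuoles, fell by 0.58 ± 0.15. YSL1, a carrier of metal-nicotianamine complexes, rose by 0.44 ± 0.12, and IREG3, of the ferroportin family, fell by 0.31 ± 0.071. The calls of NAS3, ZIF1 and NRAMP4 each ended without wild-type replicate 1 or 3 or gra3-D replicate 1 or 3 (with adjusted p as high as 0.134). The call of YSL1 ended without any array except wild-type replicate 2 (with adjusted p as high as 0.168) and with array weights, and that of IREG3 without wild-type replicate 3 or gra3-D replicate 2 (with adjusted p as high as 0.0845). With only the arrays of both groups in the fit, only NAS3 of these 5 genes was called. Against the same wild-type arrays none of the 12 iron genes was called in gra1-D (median -0.12) or gra2-D (median -0.29). The difference between gra3-D and the mean of these lines was called for FRO3 only.

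**Figure D3:**
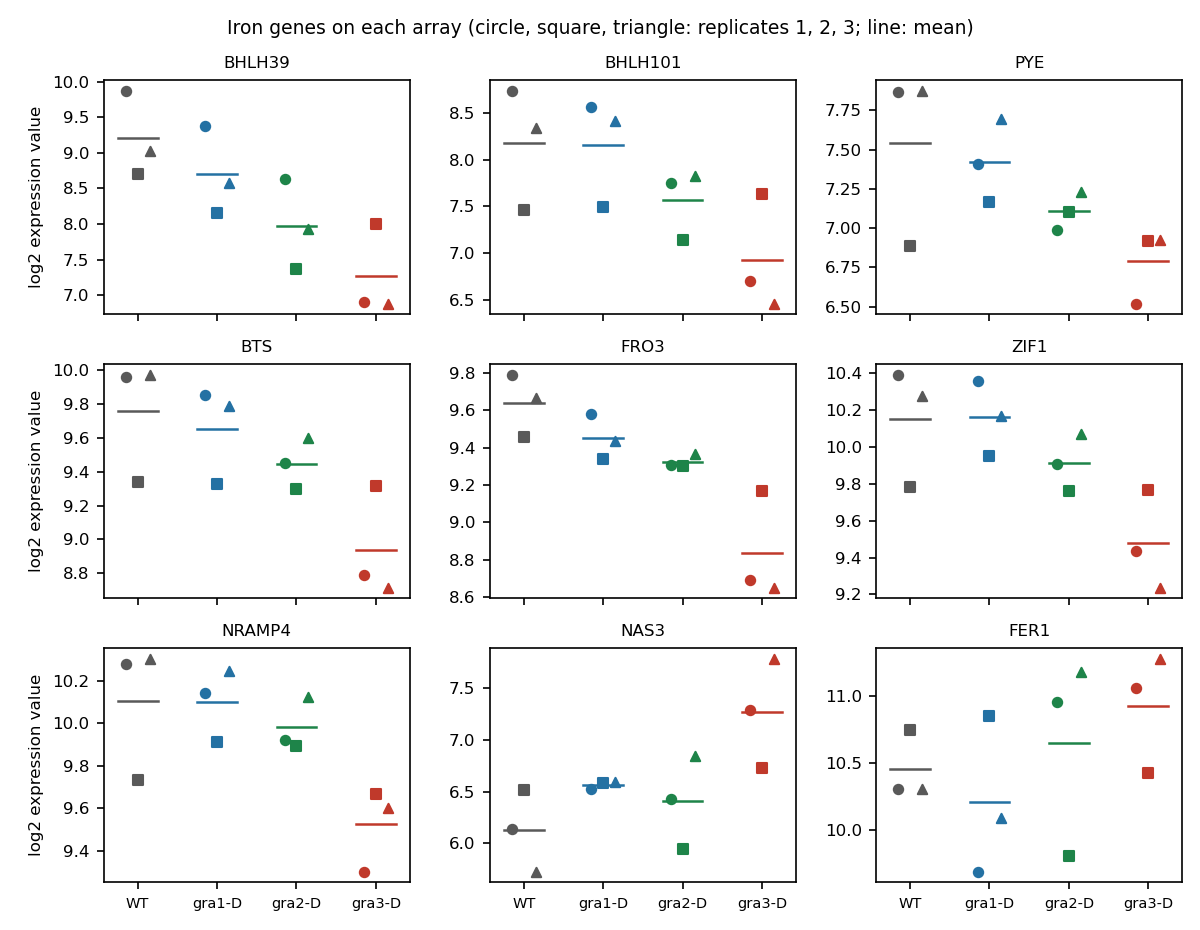
Log2 expression values (y axis, scaled for each gene) of 9 iron and metal genes on the 12 arrays, by line, with circles, squares and triangles for replicates 1, 2 and 3 and a line at the group mean. gra3-D has the lowest mean of BHLH39, BHLH101, PYE, BTS, FRO3, ZIF1 and NRAMP4 and the highest of NAS3 and FER1, and its replicate 2 lies nearest to wild type in most panels; PYE, BHLH101 and FER1 were not called.

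In the 6 lists on cell division and growth, 8 of the 11 members in the chromosome 4 end rose (72.7%), near the 74% of all loci there. Of the 86 members outside the end, 10 fell (11.6%) and 0 rose, against 3.07% and 0.948% of all loci outside it. These lists were chosen with earlier results of these data known, so their shares are a description. ANT, which prolongs growth of leaf primordia, rose by 0.71 ± 0.088, from 7.44, 7.51 and 7.29 to 8.14, 8.10 and 8.14. CYCD3;1, a cyclin that drives entry into the cell cycle, rose by 0.74 ± 0.098, from 7.61, 7.75 and 7.74 to 8.56, 8.38 and 8.38, and GRF2, a growth-regulating factor gene, by 0.95 ± 0.067, from between 6.86 and 7.02 to between 7.85 and 7.94. All 3 genes lie in the end. AN3, a coactivator of GRF proteins encoded outside it, was not called (0.09 ± 0.12, adjusted p = 0.809).

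Of 9 measured D-type cyclins, the 2 in the end rose, and of the 7 outside it 2 fell, 0 rose and 7 were below 0, with a median of -0.27. Among all loci, 74% of those in the end rose. Outside it 3.07% fell and 0.948% rose, and the median was -0.02. CYCD1;1 fell by 0.47 ± 0.10 and CYCD3;3 by 0.37 ± 0.083. CYCD5;1, in the end, rose by 0.47 ± 0.12. Of 12 mitotic genes, 1 of the 3 in the end rose. The 9 outside the end were all below 0 with a median of -0.29, and 3 of them were called lower. AUR2, an Aurora kinase gene, fell by 0.55 ± 0.11, from 6.86, 7.05 and 6.64 to 6.41, 6.25 and 6.24, while AUR1, the first locus of the end, rose by 0.46 ± 0.11, from 7.12, 7.44 and 7.34 to 7.83, 7.84 and 7.60. CYCB1;3, a mitotic cyclin, fell by 0.38 ± 0.087 and KN, the syntaxin of the cell plate, by 0.35 ± 0.093. CYCB1;1 lies in the end and was not called (0.30 ± 0.12, adjusted p = 0.179). Except for AUR2 and CYCD3;1, each call in this group of genes was lost without some array. The arrays were wild-type 2 and gra3-D 2 and 3 for CYCD1;1, wild-type 1 and gra3-D 1 and 3 for CYCD3;3, and all but gra3-D 1 for CYCD5;1, with adjusted p up to 0.165. They were wild-type 2 and 3 and gra3-D 1 and 3 for CYCB1;3, all but wild-type 1 for KN, and wild-type 1 and 3 and gra3-D 1 and 2 for AUR1, with adjusted p up to 0.158.

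Of 33 leaf size regulators, 4 of the 5 in the end rose, and 2 of the 28 outside it fell. Among all loci of the end 74% rose, and outside it 3.07% fell and 0.948% rose. Besides ANT and GRF2, the risers were SPT, a bHLH factor that restricts leaf size (0.82 ± 0.093, a lower bound), and ATHB16, a homeodomain factor that limits leaf cell expansion (0.80 ± 0.17). EBP1, which promotes organ growth, fell by 0.52 ± 0.084, from 10.38, 10.32 and 10.40 to 9.89, 9.77 and 9.88. TCP4, which ends leaf growth, fell by 0.30 ± 0.070. The median over the 28 regulators outside the end was -0.03, against -0.02 over all loci there. The replication gene TSO2, for a subunit of ribonucleotide reductase, fell by 0.45 ± 0.085 and was the only 1 of 12 replication genes called. Of 8 CDK inhibitors only KRP4 was called (-0.26 ± 0.070). XTH7, a xyloglucan endotransglucosylase gene of the end, rose by 1.004 ± 0.11, and among the 22 wall loosening genes outside it only EXPA16, an expansin gene close to background in gra3-D, was called (-0.58 ± 0.12, a lower bound). Calls were lost for ATHB16 without wild-type replicate 2 (adjusted p = 0.0564), for TCP4 without wild-type or gra3-D replicate 2 or 3 (up to 0.0913) and for KRP4 without any array except gra3-D replicate 3 (up to 0.188). KRP4 was also not called with arrays centred on chromosomes 1, 2, 3 and 5.

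Most of the ribosome assembly genes listed were lower in gra3-D. In that list of 19, chosen after the values were seen, 13 fell, 0 rose and 19 were below 0, with a median of -0.39. Over all loci outside the end, 3.07% fell and 0.948% rose. When arrays were centred on chromosomes 1, 2, 3 and 5, 10 of them fell. PPAN, a factor of the large subunit, read 6.90, 6.90 and 6.78 in wild type and 6.34, 6.36 and 6.19 in gra3-D (change -0.56 ± 0.082, adjusted p = 0.000533). FIB2, a fibrillarin gene of the nucleolus, read 8.56, 8.44 and 8.30 against 7.91, 7.73 and 7.89 (change -0.59 ± 0.11). PWP2 fell by 0.44 ± 0.076 and SWA2 by 0.48 ± 0.095, both nucleolar assembly factors, and these 4 genes kept their calls in every fit without 1 array. The other 9 falls each ended without at least 1 array, and the count was 6 without wild-type replicate 1 or 2 or gra3-D replicate 1 or 2. Among these 9 was NRPA2, a subunit of RNA polymerase I, which lost its call without gra3-D replicate 2 (-0.47 ± 0.095, adjusted p = 0.0505 without it). Of 59 loci outside the end that the gene table names as ribosomal proteins, 7 fell, 0 rose and 58 were below 0, with a median of -0.18. At mean levels from 6 to 8, 8 to 10 and 10 to 12, 3.77%, 5.65% and 6.95% of all loci outside the end fell. The count of 7 fell to 1 without gra3-D replicate 2, to 2 without wild-type replicate 2 or gra3-D replicate 1, to 3 without wild-type replicate 1 or gra3-D replicate 3 and to 4 with the centring, and it was 17 with an intensity trend in the variance prior. The medians of the ribosome assembly list were -0.32 in gra1-D and -0.26 in gra2-D.

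Some nuclear genes for plastid transcription and protein folding fell and none rose, again in lists chosen after the values were seen. Of 13 proteins associated with the plastid RNA polymerase, 6 genes fell, 0 rose and 13 were below 0, with a median of -0.37. Over all loci outside the end, 3.07% fell and 0.948% rose. At mean levels from 8 to 10 and from 10 to 12, 5.65% and 6.95% of the loci outside the end fell. FLN1, a fructokinase-like component of that complex, read 8.99, 9.20 and 9.10 in wild type and 8.40, 8.39 and 8.37 in gra3-D (change -0.71 ± 0.092, adjusted p = 0.000182). PTAC12 fell by 0.63 ± 0.088, PRIN2 by 0.66 ± 0.11 and TRXZ by 0.52 ± 0.076. FLN2 (-0.70 ± 0.15) lost its call without wild-type or gra3-D replicate 2 (with adjusted p as high as 0.0524), and PTAC14 (-0.32 ± 0.075) without wild-type or gra3-D replicate 2 or 3 (up to 0.0861). Of 15 plastid import and folding genes, 7 fell, 0 rose and 15 were below 0, with a median of -0.32. CPN60A, a chaperonin subunit, fell by 0.47 ± 0.081, from 11.80, 11.92 and 11.84 to 11.51, 11.30 and 11.33, and TIC110, of the inner envelope import machinery, by 0.46 ± 0.092. The count of 7 was 3 without gra3-D replicate 2, where CPN60B, TIC40, CPHSC70-2 and CR88 lost their calls, and 4 without wild-type replicate 2 or gra3-D replicate 3. Against the same wild-type arrays, 6 of the 13 polymerase-associated genes fell in gra1-D and 11 in gra2-D, with medians of -0.33 and -0.55. Of the 15 import and folding genes, 5 fell in gra1-D and 12 in gra2-D, with medians of -0.25 and -0.39. In the photosynthesis list, 0 of 6 genes were called, by limma or at an unadjusted p under 0.05, and the median was -0.01. Only these 6 of its 12 members were measured. Their median wild-type level of 13.98 lay close to 14.64, the highest value on wild-type replicate 1. Whether changes are compressed at that level was not tested.

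Some cold, drought and abscisic acid genes rose, and none of those listed fell. Of 14 cold and drought genes, 4 rose and 0 fell, with a median of 0.21, while 0.948% of all loci outside the end rose and 3.07% fell. Beside GOLS3 and LTI78 these were the dehydrin genes ERD10 (0.47 ± 0.081) and ERD14 (0.43 ± 0.072), and ERD14 read 10.58, 10.52 and 10.58 against 10.88, 10.97 and 11.11. All 4 kept their calls in every fit without 1 array. The cold regulator CBF3 was not called (0.55 ± 0.16, adjusted p = 0.0564), and neither were COR15A (0.05) and COR47 (-0.01), targets of the CBF factors. CBF3 was called higher with array weights, with an intensity trend and with only the arrays of both groups in the fit. It was also called with only loci at a mean level of at least 6 and without gra3-D replicate 1. Of 21 abscisic acid genes, a list chosen after the values were seen, 6 rose and 0 fell, with a median of 0.11. PP2CA, a phosphatase that dampens the hormone's signal, rose by 0.74 ± 0.11, from 9.28, 8.82 and 9.27 to 9.82, 9.84 and 9.94. AFP3 rose by 0.70 ± 0.10 and HVA22E by 0.61 ± 0.11, and ABF3, a transcription factor gene in the chromosome 4 end, by 0.97 ± 0.17. NCED3, for the key enzyme of abscisic acid synthesis (0.52 ± 0.13), and RD20, a caleosin gene (0.91 ± 0.23), lost their calls without wild-type or gra3-D replicate 2 or 3 (with adjusted p as high as 0.115). In gra1-D and gra2-D the medians of the cold and drought list were 0.30 and 0.32.

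Hormone genes gave scattered calls. Over all loci outside the end 0.948% rose and 3.07% fell, and in the end 74% rose. Of 13 gibberellin and brassinosteroid genes, GA3OX1, for the last step to active gibberellin, rose by 0.83 ± 0.12, from 7.52, 7.31 and 7.30 to 8.08, 8.35 and 8.18. BR6OX2, for the last step of brassinosteroid synthesis, fell by 0.83 ± 0.12, from 8.28, 8.10 and 8.07 to 7.59, 7.19 and 7.17, and CPD, an earlier enzyme of that pathway, by 0.33 ± 0.089. Of 13 cytokinin response genes, 3 type-A response regulators fell, ARR6 by 0.58 ± 0.11, ARR5 by 0.52 ± 0.14 and ARR4 by 0.30 ± 0.067. The groups of ARR5 overlapped. Of 11 jasmonate genes, JAZ1, a repressor of the pathway, rose by 0.64 ± 0.15 and CORI3 by 0.60 ± 0.14, and the list had 10 members above 0 and a median of 0.26. Of 17 salicylate defence genes, EDS5 in the end rose by 0.92 ± 0.17, and BGL2, a glucanase gene close to background in wild type, by 0.62 ± 0.14 as a lower bound. Of 16 auxin response genes only SAUR15, in the end, was called (0.81 ± 0.098). GA3OX1, BR6OX2, ARR6, EDS5 and SAUR15 kept their calls without any single array. JAZ1, CORI3 and ARR4 lost theirs without wild-type or gra3-D replicate 2 or 3. ARR5 and BGL2 lost theirs without wild-type replicate 1 or 2 or gra3-D replicate 2 or 3, and CPD without wild-type replicate 1 or 3 or gra3-D replicate 2 or 3, and the highest adjusted p of these 6 was 0.177.

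Of 11 phosphate starvation genes, 4 rose and 0 fell, with a median of 0.16 over the 10 outside the end. The share that rose was 0.948% over all loci outside the end and 74% in it. Beside AT5G03545 these were MGD2, for a galactolipid synthase (0.65 ± 0.13), SPX1, a phosphate sensor (0.39 ± 0.099), and SQD1 in the end, of sulfolipid synthesis (0.99 ± 0.071). SPX1 lost its call without any array except gra3-D replicate 1 (with adjusted p as high as 0.12). The phosphate transporter gene PHT1;4 and SPX3 were close to background in both groups.

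Of 14 clock genes, RVE1, a morning-phased MYB-like factor, fell by 0.93 ± 0.23, from 7.07, 6.23 and 6.36 to 5.54, 5.73 and 5.62, and CCR1 in the end rose by 0.68 ± 0.12. The shares over all loci outside the end were 3.07% lower and 0.948% higher, and 74% of loci in it rose. The core clock genes were not called and spread widely within groups, as in LHY at 8.61, 7.11 and 7.38 in wild type and 7.26, 6.82 and 7.45 in gra3-D. PRR5, an evening-side repressor, read 7.40, 8.71 and 8.19 in wild type and 8.06, 8.34 and 7.05 in gra3-D, so wild-type replicate 1 and gra3-D replicate 3 were the lowest of their groups. RVE1 lost its call without wild-type replicate 1 or any 1 of the gra3-D arrays (with adjusted p as high as 0.112). Among 12 flowering time genes, the floral repressor SVP rose by 0.26 ± 0.065, and its partner repressor FLC fell by 0.70 ± 0.18, a lower bound since gra3-D was close to background. SPL4, which promotes flowering, was called lower (-0.49 ± 0.077) with both groups close to background, so its size is uncertain. SVP lost its call without any array except gra3-D replicate 1, and FLC without wild-type or gra3-D replicate 1 or 3 (with adjusted p as high as 0.141) and with array weights.

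Among 15 stomatal lineage genes, SDD1, a protease gene that lowers stomatal density, rose by 0.52 ± 0.089, from 6.79, 6.84 and 6.93 to 7.44, 7.35 and 7.32. Of 15 leaf polarity genes only HB8 in the end, a factor of vascular development, was called (0.60 ± 0.083). Of 16 flavonoid genes 0 were called by limma and 4 were higher at an unadjusted p under 0.05, including the anthocyanin regulator at AT1G56650 (1.04 ± 0.29, adjusted p = 0.0515) and DFR (1.02 ± 0.36, adjusted p = 0.132). DFR read 7.05, 6.61 and 6.58 in wild type and 6.95, 7.90 and 8.45 in gra3-D, so the groups overlapped through replicate 1. AT1G56650 was called higher after quantile normalization, with the centring, with array weights, with an intensity trend and without gra3-D replicate 1, and DFR too without that array. No gene was called among 7 heat shock, 8 sugar starvation, 6 aliphatic glucosinolate, 7 root, 7 floral and 4 seed storage genes. At an unadjusted p under 0.05 these held 1 higher heat shock gene, 2 higher and 1 lower sugar starvation genes, 1 lower floral gene and 0 glucosinolate, root and seed storage genes. In the 26 lists together, 47 of 320 measured members were called (14.7%), against 6.11% of all loci. The lists were chosen with earlier results of these data known, so their shares are a description. These were 13 of 17 members in the end (76.5%), all higher, and 34 of 303 outside it (11.2%), against 4.01% of all loci outside it.

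**Figure D4:**
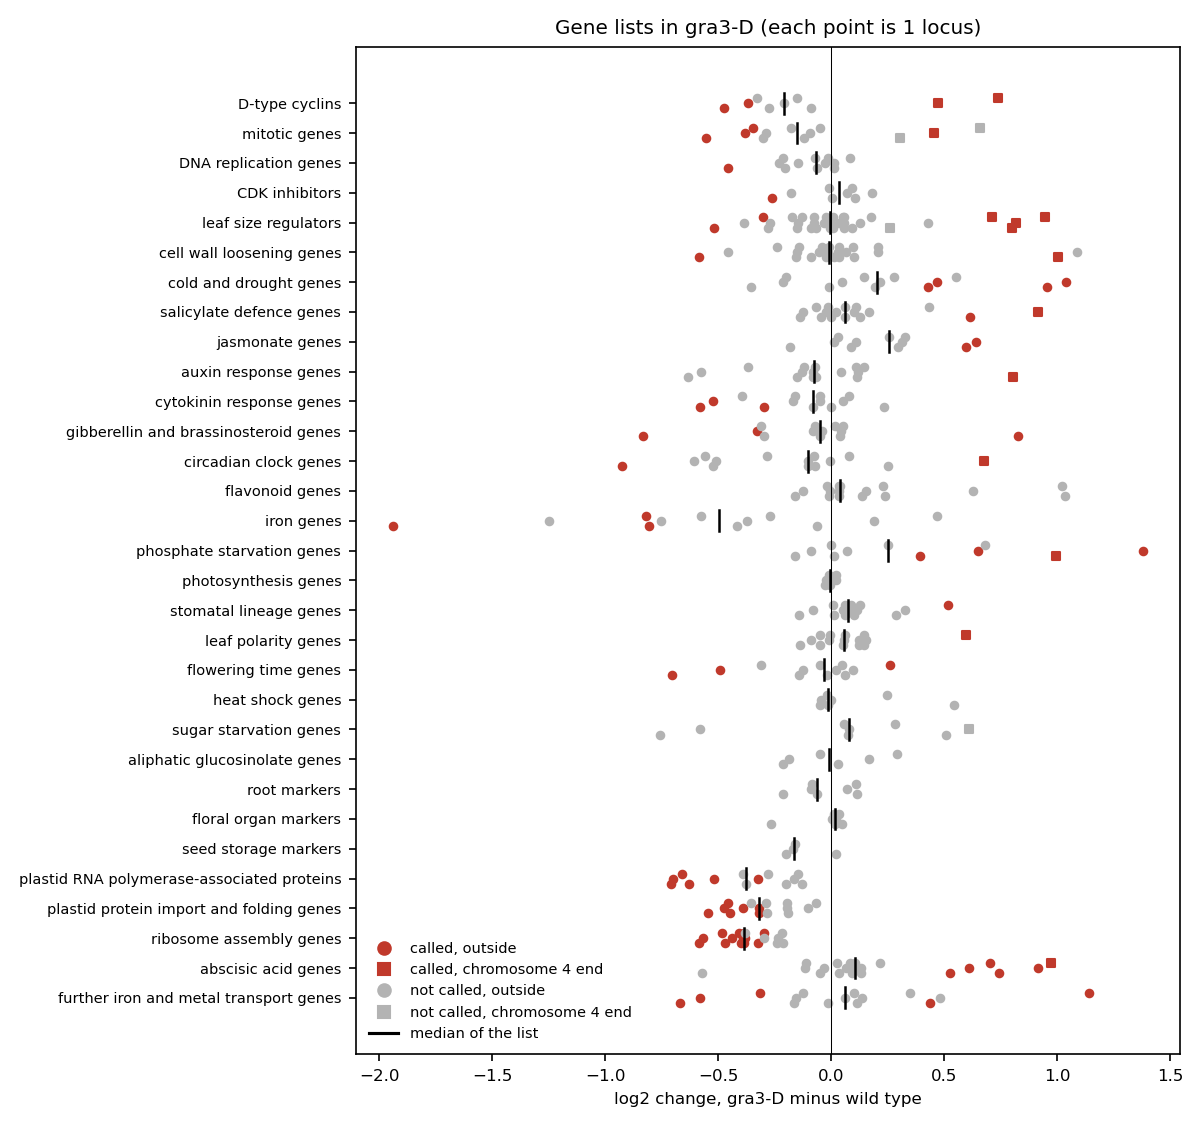
Change in gra3-D against wild type (log2, x axis) of each measured member of 26 lists and of 5 lists chosen after the values were seen, which are the lowest 5 rows. Red points passed an adjusted p of 0.05, squares lie in the chromosome 4 end and bars are medians; the ribosome assembly and plastid lists lie wholly left of 0, and the squares lie right of 0.

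In the chromosome 4 end 460 of 622 loci rose (74%) and 0 fell (0%), with 2 lower at an unadjusted p under 0.05. The bounds of the end came from these same arrays, so its values are a description. Of 426 loci with a mean level of at least 6, 414 rose, and their median change of 0.87 was a 1.83-fold rise, with 1.505-fold and 2.14-fold at the lower and upper deciles. The shift of the end against the rest of the genome was 0.91, 0.90 and 0.91 on the 3 gra3-D arrays (mean 0.91 ± 0.0040, SD). Loci of the end made up 70.7% of the 651 loci that rose among all 20777 (3.13%), and with the 618 that fell (2.97%) 1269 were called in all (6.11%). Without gra3-D replicate 2 that count was 817.

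The largest rises of the end exceeded a doubling. They were AT4G33490 (1.69 ± 0.13), AT4G33550 (1.64 ± 0.29), KCS16, of very-long-chain fatty acid synthesis (1.59 ± 0.11), AT4G36010 (1.55 ± 0.16) and AT4G33040 (1.53 ± 0.19). KCS16 read 8.37, 8.69 and 8.34 in wild type and 10.06, 10.11 and 9.99 in gra3-D. Among the loci of the end with a mean level of at least 6, the changes nearest to a fall were of BT5, a BTB and TAZ domain protein gene (-0.10 ± 0.29), MYB4, a repressor of phenylpropanoid genes (0.10 ± 0.13), and AT4G34950 (0.12 ± 0.21), none of them called. BT5 varied widely, at 7.08, 6.94 and 6.51 in wild type and 7.14, 7.15 and 5.94 in gra3-D, and MYB4 overlapped at 6.79, 6.55 and 6.399 against 6.57, 6.63 and 6.83. AGP3, the last locus of the end, was close to background in both groups (0.03 ± 0.082).

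To ask which changes were particular to gra3-D, that line was set against the mean of gra1-D and gra2-D, over the 20014 loci outside AT4G31170 to the end of the chromosome. The difference does not use wild-type values, but the wild-type arrays enter the shared estimate of the spread. In this comparison 15 loci (0.0749%) were called, 7 higher and 8 lower in gra3-D, and 9 with only the arrays of the 3 mutant lines in the fit. The counts against wild type over the same loci, which share the wild-type arrays, were 190 higher (0.949%) and 611 lower (3.05%) in gra3-D, 184 (0.919%) and 565 (2.82%) in gra1-D, and 526 (2.63%) and 1294 (6.47%) in gra2-D. The count of 15 fell to 7 without gra3-D replicate 2, to 8 without gra2-D replicate 1 and to 9 without gra1-D replicate 3 or gra2-D replicate 3. No locus named here was called against both gra1-D and gra2-D singly.

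QQS differed most (-1.91 ± 0.11, adjusted p = 3.07e-06), with gra2-D at 10.27, 10.13 and 10.30, above wild type, and gra3-D was not called against gra1-D (-0.42, adjusted p = 0.795). CNGC12, a cyclic nucleotide-gated channel gene, was 1.23 ± 0.11 above the mean of the other lines, yet gra3-D at 8.32, 8.15 and 8.36 overlapped wild type at 8.60, 8.20 and 8.43 (change -0.13, adjusted p = 0.693), and gra1-D was the line set apart (-2.56 against wild type). FRO3, called lower against wild type in gra3-D, was also called against the mean of the other lines (-0.55 ± 0.11, adjusted p = 0.0366). It was not called against gra1-D (-0.62, adjusted p = 0.115) or gra2-D (-0.49, adjusted p = 0.125) singly, and it lost its call without any 1 of 7 arrays (with adjusted p as high as 0.247), with array weights and with only the arrays of the mutant lines. LSG1-2, a GTPase gene for the large ribosomal subunit, was called against wild type (-0.41 ± 0.11) and against the mean of the other lines (-0.46 ± 0.092), with changes of 0.03 in gra1-D and 0.08 in gra2-D. Its calls ended without any 1 of 4 and of 7 arrays, with adjusted p up to 0.146 and 0.234.

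**Figure D5:**
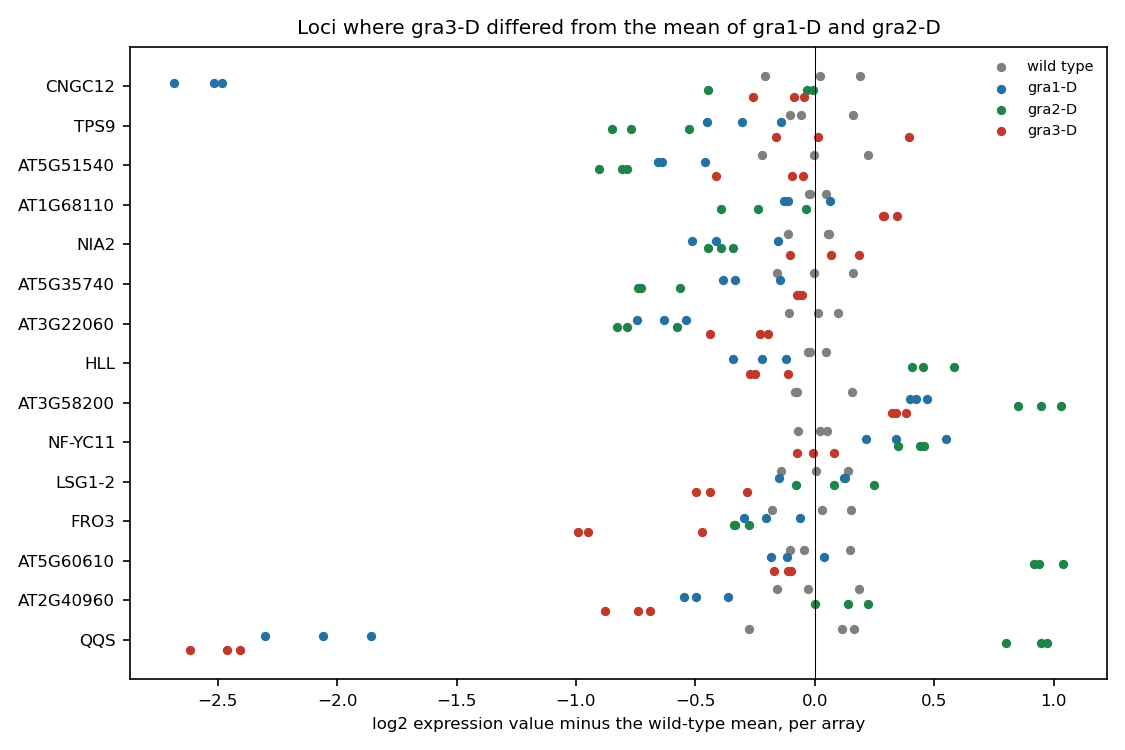
Log2 expression value minus the wild-type mean (x axis) on each of the 12 arrays for the 15 loci where gra3-D differed from the mean of gra1-D and gra2-D, 1 point per array, coloured by line. QQS is low in gra3-D and gra1-D and high in gra2-D, CNGC12 is low in gra1-D, and FRO3 and LSG1-2 are lowest in gra3-D.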

How the data were processed

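Per the labels' protocols, RNeasy kits were used for total RNA, which was biotin-labelled for ATH1 arrays. What the authors deposited is a table of log2 expression values, made with RMA per the submitters' processing notes (version not given in the sources used here). It holds 1 row for each of 20777 loci, and how probes were grouped by locus is not stated. Symbols came from a gene table that matched 20508 loci. Precision is set by the number of arrays, which have no depth.

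Group means of all 12 arrays were fitted with limma 3.58.1 (lmFit, eBayes, R 4.3.3) without a replicate block, and p-values are two-sided and adjusted by Benjamini-Hochberg over all loci. The code was tested on simulated data. Named loci are the 12 largest rises and falls with groups that do not overlap, the extremes of the end, up to 4 called members of each list, 5 fixed growth genes and the largest differences from the other lines. ATHB16, TCP4, and members past 4 in the 5 added lists, were named after their values were seen. Members, lists and tests were chosen with earlier results of these data known, and 5 lists after the values were seen. Alternatives covered the block, the samples in the fit, normalization, centring, a filter on dim loci, the variance prior, array weights and leaving out each array. Promoter words and sequences were not analysed here.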

Additional observations from a re-analysis of the deposited data

Results flagged for a closer look

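The 5 largest differences in each direction between gra3-D and the mean of gra1-D and gra2-D stand out because the lines differ in a test of that difference itself (limma, adjusted p under 0.05). Below that mean in gra3-D, though not necessarily below each line, were QQS (-1.91), AT2G40960 (-0.60), AT5G60610 (-0.57), FRO3 (-0.55) and LSG1-2 (-0.46). Above the mean were CNGC12 (1.23), TPS9, for a trehalose-phosphate synthase-like protein (0.59), AT5G51540 (0.52), AT1G68110 (0.45) and NIA2, for nitrate reductase (0.43). NIA2 read 11.44, 11.55 and 11.26 in gra3-D and 11.42, 11.43 and 11.26 in wild type, with changes against wild type of -0.36 in gra1-D and -0.39 in gra2-D. AT5G60610 and AT1G68110 were close to background in both gra3-D and wild type, so their sizes are uncertain. QQS, AT2G40960, AT5G60610 and CNGC12 kept their calls under all alternatives run, and the other 11 of the 15 called loci each lost the call without some array.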

How the results depend on the processing

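Direction was compared for the named loci only, and none of those called changed direction under the alternatives run. Over all loci, 651 rose and 618 fell in the main fit. Falls outnumbered rises there with array weights (734 higher, 876 lower) and with an intensity trend (688 and 722). They also did so with the block (761 and 835) and with the filter on dim loci (655 and 726). Over all loci the count of 1269 lay between 1082 and 1610 under other settings and between 817 and 1108 without 1 array. Outside the end the count of 809 lay between 632 and 1144, and between 382 and 666 without 1 array. The replicate block gave 1126 there (292 higher, 834 lower), 18 loci in place of 15 against the other lines, of which 10 were among the 15, and 56 in place of 47 list members. With the block, FRO3, LSG1-2, AT3G58200, HLL and AT3G22060 lost their calls against the other lines and YSL1 its call against wild type. CBF3 and PYE, not called against wild type in the main fit, were called higher and lower with the block. The deviations of same-numbered gra3-D and wild-type arrays correlated at -0.23, 0.29 and -0.02, so not every pair was over 0.1 and the numbers were not taken as pairs. The highest of all 9 correlations, 0.37, was of gra3-D replicate 3 with wild-type replicate 1, and the labels do not say what the numbers share. Against the other lines, array weights gave 27 loci, only the compared arrays 9, and leaving out 1 array 7 to 17. Of the 15, a fit to the compared arrays alone ended 7 calls (FRO3, LSG1-2, TPS9, NIA2, NF-YC11, HLL and AT3G22060), centring 4 (LSG1-2, TPS9, NIA2 and AT5G35740), quantile normalization 4 (LSG1-2, TPS9, AT3G58200 and AT5G35740), an intensity trend 2 (HLL and AT3G22060) and array weights that of FRO3. The list count was 33 to 47 without 1 array. The end's shift of 0.91 was 0.88 for loci at a level of at least 5 and 0.914 at 8, and 0.902 to 0.910 without 1 array. Of 111 named loci called against wild type, 63 kept the call under all alternatives, 48 lost it without some array and 25 under another setting. With arrays centred on chromosomes 1, 2, 3 and 5, KN, KRP4, CPD, LSG1-2, CPN60B, RID3 and DIM1A lost their calls, and 4 jasmonate and 2 stomatal genes were called in place of 2 and 1. Quantile normalization ended the calls of LSG1-2, KN and CPD, and an intensity trend that of KRP4. With only the compared arrays 22 lost theirs, which were AT5G22460, CYCD1;1, CYCD3;3, KN, KRP4, TCP4, BGL2, ARR5, CPD, SVP, CPN60B, IMP4, RID3, DIM1A, RD20, YSL1, NRAMP4, ZIF1, IREG3 and the mitochondrial ATMG00070, ATMG00660 and ATMG01220. Array weights ended those of BTS, FLC, YSL1 and ZIF1. Of the sugar starvation list, without calls otherwise, SEN1 was called without gra3-D replicate 3 and BGAL4 with the block and with only the compared arrays. The causes were not tested.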
